A study of Mus musculus with 6 samples.

Results

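Spots of hippocampal field CA1 were picked by their transcripts from 6 coronal sections of mouse brain that had been profiled with the Visium assay. In this assay tissue is laid over an array of spots, each with its own barcode, and captured transcripts are counted as unique molecular identifiers (UMIs), 1 per captured molecule. In each section, spots of at least 500 UMIs were scored by the sum of the natural log of 1 plus the UMIs per 10000 for Fibcd1, Spink8 and Neurod6, and the 20 highest were kept. This gave 120 of 16741 spots, of which 100 came from the 5 sections in which the chosen spots carried CA1 transcripts. A spot can hold several cells, so CA1 spots hold pyramidal neurons with their dendrites, interneurons and glia.

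The brains came from male C57BL/6J mice, an inbred strain, aged 6 months (young), 18 months (middle) or 21 months (old), and the labels name no treatment and no altered gene. There were 2 sections per age, 16 µm thick, cut near bregma -1.655 mm by the labels. Both young sections shared slide 1 with middle 1 and old 1, whereas middle 2 and old 2 were on slide 2. The labels give 2 males per age, so the section was the replicate, and p-values measure the spread between these sections.

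CA1 is the last of the pyramidal fields in the hippocampal circuit. Its neurons receive the Schaffer collaterals of CA3 on spines that hold AMPA and NMDA receptors, calcium/calmodulin-dependent kinase and scaffold proteins, and they send axons to the subiculum and cortex. The field is studied in ageing because the strength of these synapses, calcium entry and release from stores, and the afterhyperpolarization that follows firing have all been reported to shift with age.

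The 20 spots of young 1 were not like those of the other 5 sections. Their scores ran from 2.05 to 3.36, whereas the 20th spot scored 4.27 in young 2, 4.06 in middle 1, 3.90 in middle 2, 4.07 in old 1 and 4.01 in old 2. No spot of young 1 reached the lowest of these values, and the other sections had 20 to 24 such spots each. The spot just outside the chosen 20 scored 2.02 in young 1 and between 3.88 and 4.16 elsewhere, so the edge of the set was not a gap in any section. These scores chose the spots and are given as a description.

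**Figure D1:**
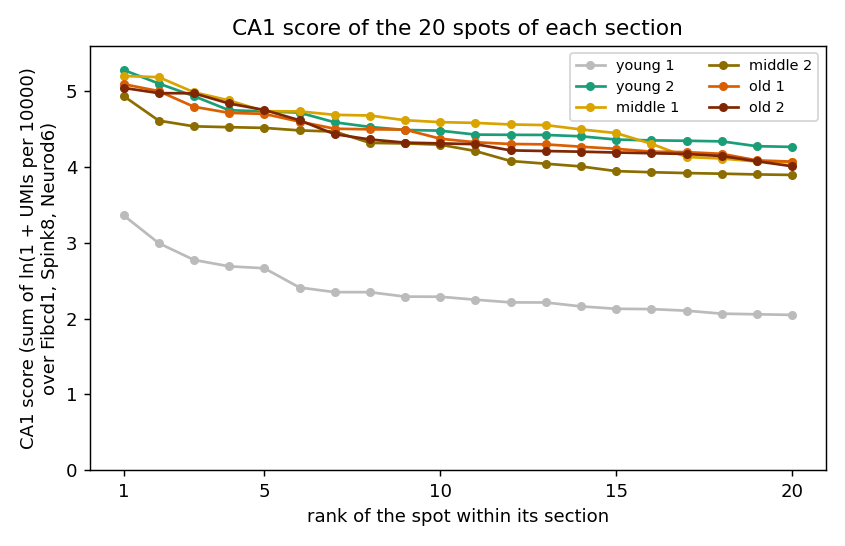
CA1 score (sum of natural logs, vertical axis) of the 20 chosen spots of each section against their rank (horizontal axis), 1 line per section. The line of young 1 lies between 2.05 and 3.36, below the lowest chosen spot of every other section (3.90).

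In young 1 the score came mainly from Neurod6, a transcription factor of pyramidal neurons in the whole hippocampus and in neocortex. Levels below are CPM, a gene's count scaled to a fixed library total, that is, its share of all UMIs in the summed spots. Neurod6 stood at 523 CPM in young 1 and between 447 and 513 CPM in the other 5 sections. Spink8 added to the score, with UMIs in 17 of the 20 spots of young 1. Its level was 88.7 CPM there against 308 to 387 CPM. Fibcd1, a membrane receptor with a fibrinogen-like domain that marks CA1, was at 3.13 CPM in young 1 against 236 to 311 CPM. Wfs1, an endoplasmic reticulum protein abundant in dorsal CA1 and not used by the rule, was at 5.21 CPM against 362 to 468 CPM. Cpne4, a copine that marks CA3, was the other way round, with 392 CPM in young 1 and 23.2 to 76.4 CPM elsewhere.

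A second set of 20 spots per section was therefore scored in the same way on the CA3 genes Bok, Iyd and Grik4. It shared 15 of its 20 spots with the chosen spots of young 1, and none with those of any other section. Spink8, at 88.7 CPM in the chosen spots of young 1, averaged 32.4 ± 27.1 CPM (SD, n = 5) in the CA3 spots of the other sections. Across 7013 genes, without the 6 used for scoring, the log2 profile of the young 1 spots had a Pearson r of 0.894 with the mean CA1 profile of the other sections and 0.973 with their CA3 profile. The other 5 sections had r between 0.975 and 0.983 with CA1 and between 0.891 and 0.912 with CA3. These correlations are across genes within a library, which are not independent replicates. The label CA1 thus held for most spots of 5 sections and went against the data in young 1, whose spots are called the spots of young 1 below. Some spots of the 5 sections had 0 or 1 UMI of Wfs1 but 18 to 58 UMIs of Rgs14, from the list of CA3 and CA2 markers. By rank they were 18 in young 2, 16 in middle 1, 14 in middle 2, 16 in old 1, and 18 and 19 in old 2. Such spots stayed in the sums called CA1. CA1 levels are given for the 5 sections, and young CA1 rests on young 2 alone.

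**Figure D2:**
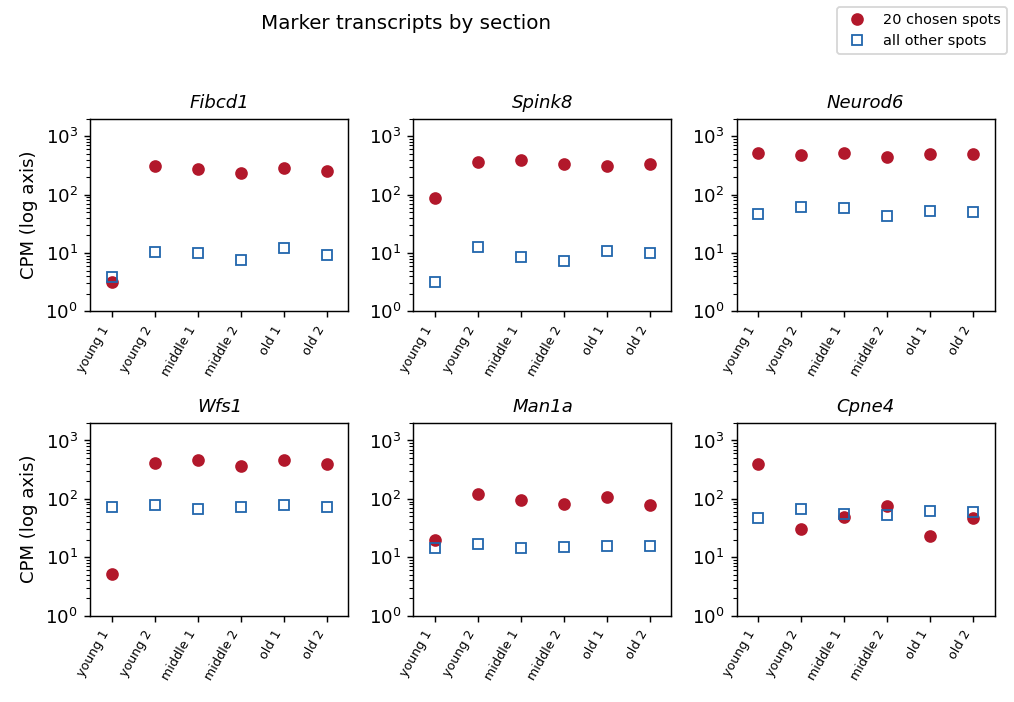
CPM (log axis) of 3 genes of the rule (top row) and of Wfs1, Man1a and Cpne4 (bottom row) by section, in the 20 chosen spots (red circles) and in all other spots of the section (blue squares). Young 1 has 3.13 CPM of Fibcd1 and 5.21 CPM of Wfs1 in its chosen spots but 392 CPM of Cpne4.

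The summed UMIs of the 20 spots ran from 694020 in middle 2 to 1131596 in young 2, in sections of 60939185 to 77557934 UMIs. The median CA1 spot held 57807.5 UMIs in young 2, 50891 in middle 1, 35486.5 in middle 2, 44577 in old 1 and 35902.5 in old 2. Both sections of slide 2 were thus the shallowest in CA1, and both had more mitochondrially encoded transcripts (10.4% and 9.15% of UMIs against 6.95% to 7.16% on slide 1). They also had more myelin transcripts, with 1141 and 1235 CPM summed over 10 genes against 709 to 878 CPM on slide 1. Ttr, the choroid plexus transcript for transthyretin, was at 563 and 388 CPM on slide 2 and between 40.3 and 128 CPM in the CA1 spots of slide 1. Young CA1 lay on slide 1 only. Any 2 sections shared 2082 to 2826 spot barcodes, and 1920 were in all 6, while 0 to 6 of the 20 chosen barcodes recurred between sections.

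Spink8 and Fibcd1, which chose the spots, head the list of ratios, as the choice fixes. Spink8, for a protease inhibitor of the Kazal family, had 346 ± 29.5 CPM (SD, n = 5) in CA1 spots and 9.88 ± 2.10 CPM in all other spots. Fibcd1 had 272 ± 28.2 CPM (SD, n = 5) and 9.93 ± 1.73 CPM. Of 3937 genes with at least 50 CPM in CA1, 383 were over 2-fold and 66 over 4-fold higher than in other spots on the log2(CPM + 1) scale, by the mean over 5 sections, while 73 were over 2-fold and 15 over 4-fold lower. The minimum was set in CA1 itself, which favours genes that are high there. Of 7768 genes with at least 20 CPM in either, 31.9% were higher in CA1 without overlap of the 5 sections and 19.4% lower. Because the rule chose spots by their transcripts, this contrast has no test.

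The genes with the largest ratios after those were not used by the rule, apart from Neurod6. Lefty1, an antagonist of Nodal signalling, had 112 ± 21.4 CPM (SD, n = 5) in CA1 against 3.67 ± 0.668 CPM in other spots. Gpr161, a receptor that restrains Hedgehog signalling, had 112 ± 20.0 CPM (SD, n = 5) against 6.07 ± 0.580 CPM. Pou3f1, a POU-domain transcription factor, had 251 ± 15.2 CPM (SD, n = 5) against 26.6 ± 3.34 CPM, and only 8.78 ± 4.39 CPM in CA3 spots. Htr1a, the serotonin 1A receptor, had 57.8 ± 14.3 CPM (SD, n = 5) against 5.85 ± 0.447 CPM. Gm2115, Iqgap2, Lct, Lmo1, Rasd1, Matn2, Wipf3 and Hpca, the calcium sensor hippocalcin, completed the 15 largest. Of these 15, 14 had a lower level in the spots of young 1 than in any of the 5 CA1 sums, the exception being Neurod6. Lct was on the list of dentate markers and was higher in dentate spots (178 ± 14.2 CPM) than in CA1 (61.4 ± 8.81 CPM, SD, n = 5).

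Of 10 CA1 pyramidal genes outside the rule, 8 were higher in CA1 than in CA3 spots with no overlap between the 5 sections of each, against 15.1% of 7487 genes with at least 20 CPM in either. Itpka, a kinase of inositol trisphosphate found in dendritic spines, ran from 752 to 959 CPM in CA1 and from 143 to 184 CPM in CA3. Mpped1 ran from 268 to 296 CPM and from 9.11 to 24.2 CPM. Cpne6 went the other way, with 355 to 481 CPM in CA1 and 618 to 682 CPM in CA3. The CA3 spots were less pure than the CA1 spots: 10 myelin genes summed to between 2771 and 4337 CPM there, and 5 thalamic genes to between 323 and 590 CPM, against 23.2 to 43.6 CPM in CA1. The part of such admixture in the values below was not tested.

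Receptor and postsynaptic lists had higher sums in CA1 than in CA3 spots. Summed over 12 AMPA receptor and auxiliary subunit genes, CA1 had 3040 to 3583 CPM, CA3 2115 to 2245 CPM and other spots 1175 to 1316 CPM. Dentate spots, 20 per section scored in the same way on Prox1, C1ql2 and Dsp, had 2428 to 2930 CPM. The NMDA, kainate and metabotropic receptor list had 1584 to 1977 CPM in CA1 and 1188 to 1314 CPM in CA3. Its dentate sums (1454 to 1724 CPM) overlapped those of CA1. Gria1, which encodes the subunit added to synapses during potentiation, ran from 683 to 871 CPM in CA1 and from 336 to 415 CPM in CA3. Gria2, Cnih2, Cacng3 and Shisa7 were also higher without overlap. Cacng2, the auxiliary subunit stargazin, was lower, with 11.5 to 32.3 CPM in CA1 and 53.4 to 80.7 CPM in CA3. Among NMDA receptor genes, Grin2a ran from 455 to 535 CPM in CA1 and from 198 to 245 CPM in CA3, and Grin1, Grin2b and Grm5 were higher as well. In all, 5 of 9 AMPA receptor genes compared and 4 of 9 NMDA, kainate and metabotropic receptor genes were higher without overlap, where 15.1% of the 7487 genes were. In the other direction, 1 and 3 were lower, where 10.6% of those genes were.

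Of 21 scaffold and plasticity kinase genes compared, 10 were higher in CA1 than in CA3 without overlap. None were lower (0), against 15.1% and 10.6% of the 7487 genes. The list summed to 12237 to 13985 CPM in CA1 and 8837 to 9472 CPM in CA3. Dentate spots had 11566 to 12950 CPM, which overlapped CA1. Ppp3ca, the catalytic subunit of calcineurin, had the highest level of those named, with 3220 to 4141 CPM in CA1 and 1855 to 2258 CPM in CA3. Nrgn, which encodes the calmodulin-binding protein neurogranin, ran from 2970 to 3257 CPM against 2014 to 2403 CPM. Adcy1, a calcium-stimulated adenylyl cyclase, ran from 339 to 419 CPM against 125 to 176 CPM. Camk2a, the kinase subunit central to potentiation, overlapped between the fields (430 to 807 CPM in CA1 and 616 to 968 CPM in CA3).

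Presynaptic vesicle genes were lower in CA1 than in CA3 spots. Of 17 compared, 16 were lower than in CA3 with no overlap, where 10.6% of the 7487 genes were, and 0 were higher. The sum ran from 8814 to 9575 CPM in CA1, from 14439 to 15359 CPM in CA3 and from 9345 to 9905 CPM in other spots. Dentate spots had 7510 to 8780 CPM, below CA1, and the sums of CA1 and other spots overlapped. CA3 was thus the set that stood apart. Snap25, a membrane fusion protein, ran from 2115 to 2174 CPM in CA1 and from 4484 to 4790 CPM in CA3. Slc17a7, the vesicular glutamate transporter of forebrain pyramidal neurons, ran from 818 to 909 CPM and from 1299 to 1345 CPM. The spots of young 1 had 4991 CPM of Snap25 and 1583 CPM of Slc17a7, both above every CA1 sum.

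Of 22 calcium and afterhyperpolarization genes, 10 were higher in CA1 than in CA3 without overlap, where 15.1% of the 7487 genes were. Another 3 were lower, a share near that of all genes (10.6%). The store release channels were among the higher ones: Itpr1, the inositol trisphosphate receptor, ran from 337 to 409 CPM in CA1 and from 106 to 142 CPM in CA3, and Ryr2 and Ryr3, the ryanodine receptors, did not overlap either. Kcnn2, a small-conductance calcium-activated potassium channel, ran from 80.7 to 96.3 CPM against 27.4 to 47.3 CPM. Cacna1a, the P/Q-type calcium channel of axon terminals, was lower in CA1 (71.7 to 97.2 CPM) than in CA3 (107 to 141 CPM).

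Immediate early genes, which are transcribed within minutes of neuronal activity, stood higher in CA1. Of 18 compared, 13 were above CA3 without overlap and 1, Jun, was below, against 15.1% and 10.6% of the 7487 genes. The list summed to between 2915 and 3771 CPM in CA1, between 1178 and 1499 CPM in CA3 and between 1241 and 1718 CPM in other spots. Nr4a1, an orphan nuclear receptor, ran from 369 to 456 CPM in CA1 and from 56.1 to 101 CPM in CA3. Egr1, a zinc finger factor, ran from 672 to 868 CPM against 113 to 204 CPM. By contrast, of 12 heat shock and chaperone genes compared, 0 were separated from CA3 in either direction. The steroid receptor genes Nr3c1 and Nr3c2, for the glucocorticoid and mineralocorticoid receptors, were higher in CA1, with 177 to 236 CPM of Nr3c2 against 74.3 to 112 CPM in CA3.

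**Figure D3:**
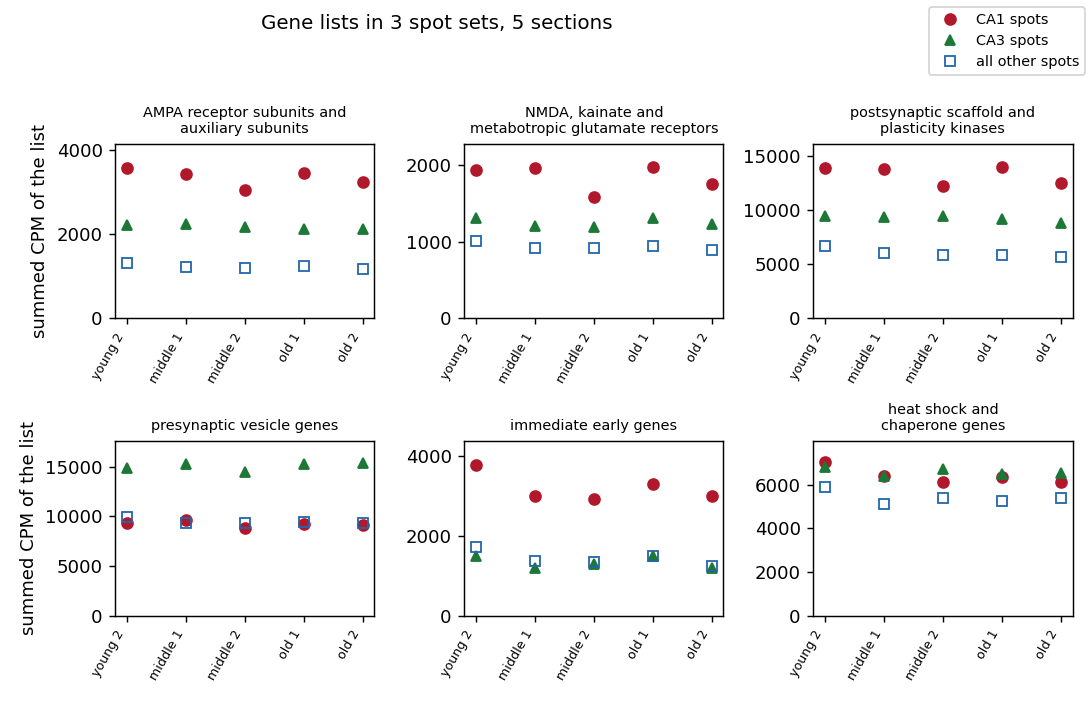
Summed CPM of 6 gene lists (vertical axes, from 0) in each of 5 sections, for the 20 CA1 spots (red circles), the 20 CA3 spots (green triangles) and all other spots (blue squares). CA1 lies above CA3 for both receptor lists, the scaffold list and the immediate early list, below it for presynaptic genes, and among it for heat shock genes.

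The comparison over age asked which transcripts of the CA1 spots differed between 6, 18 and 21 months. Almost none passed the test. UMIs of the 20 spots were summed per section and fitted with edgeR's quasi-likelihood test, with Benjamini-Hochberg adjustment over all genes. Over 5 sections, without young 1, 1 of 9865 genes was called between old and young at an adjusted p under 0.05 (0.0101%), 0 between middle and young (0%) and 1 between old and middle (0.0101%). At an unadjusted p under 0.05 the counts were 407 (4.13%), 433 (4.39%) and 339 (3.44%). DESeq2 called 0, 0 and 1. In this fit young 2 is the only young sample and is assumed to vary like the other groups. The spread comes from the middle pair and the old pair of sections. Each pair holds 1 section of slide 1 and 1 of slide 2, so slide and animal cannot be told apart in that spread.

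With all 6 sections, which set the CA3-like spots of young 1 beside the CA1 spots of young 2, edgeR called 0 of 9422 genes in each comparison (0%), with 308 (3.27%), 260 (2.76%) and 123 (1.31%) at an unadjusted p under 0.05, and DESeq2 called 0. When young 2 was left out instead, so that the spots of young 1 stood for young, 1245 genes were called between old and young and 1172 between middle and young. These counts compare different fields of the hippocampus.

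The called gene was the same in both contrasts, Gm47283 (ENSMUSG00000096768), a predicted protein-coding gene on the Y chromosome (chrY:90784738-90816464, plus strand, GRCm38, GENCODE M21). It had 179 CPM in young 2, 132 and 153 CPM in the middle sections and 341 and 388 CPM in the old sections. Both old sections thus lay above the other 3 CA1 sums. The log2 fold change was 1.06 (SE 0.17, adjusted p = 0.00172, edgeR) for old against young and 1.35 (SE 0.15, adjusted p = 4.86e-08) for old against middle. However, the spots of young 1 had 428 CPM, above both old sections. All other spots had 267 CPM in young 1, 90.8 in young 2, 80.3 and 135 in middle and 202 and 214 CPM in old sections, so young 1 and the old sections were again the highest. With all 6 sections the log2 fold change of old against young was 0.22 (SE 0.43, adjusted p = 0.98, edgeR). DESeq2 gave an adjusted p of 0.9997 for old against young over 5 sections.

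The genes of smallest p after that one, which were not called, included Gad1, the GABA-synthesizing enzyme of interneurons. It had 112 CPM in young 2, 171 and 210 CPM in middle and 192 and 202 CPM in old sections. All 4 older sections lay above young 2, and the log2 fold change of old against young was 0.85 (SE 0.19, adjusted p = 0.17, edgeR). Of 10 interneuron genes tested, 8 had positive values (50.7% of all genes did), with a median log2 fold change of 0.41 against 0.01 for all genes tested, and 1 had an unadjusted p under 0.05. Gad1, Gad2, Pvalb and Vip, 4 of the 10, lay above young 2 in all 4 older sections, as 14.1% of all genes did. Gad2 was at 0.42 (SE 0.26), whereas Sst, for the peptide somatostatin, was at -0.56 (SE 0.45). The summed list had 2906 CPM in young 2, 3167 and 3464 CPM in middle and 2736 and 3330 CPM in old sections, so old 1 lay below young 2. These sums exceeded those of other spots (2239 to 2423 CPM). Yet only Cck was higher in CA1 than there without overlap, and Gad1, Gad2, Slc32a1, Sst and Npy were lower. The sum thus leans on Cck and does not measure interneurons alone. In summed spots, the number of interneurons and the RNA per interneuron cannot be told apart.

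Ubxn2b, a cofactor of the p97 ATPase, had the smallest p among lower genes. It had 76.0 CPM in young 2, 53.1 and 31.7 CPM in middle and 35.9 and 23.9 CPM in old sections. The fitted log2 difference was -1.27 (SE 0.29, adjusted p = 0.17, edgeR), and without a filter on low counts it was called (adjusted p = 0.0213). Sema3e, a secreted guidance protein, had 172 CPM in young 2, 148 and 117 CPM in middle and 102 and 105 CPM in old sections, while other spots stayed between 19.1 and 21.1 CPM in all 6 sections. Its log2 fold change was -0.69 (SE 0.18, adjusted p = 0.53, edgeR). The other uncalled genes of the 5 smallest p were Ighm, Fxyd7 and Ngef with positive values (Ngef was called with slide as a block, adjusted p = 0.0438) and Dnajb1, Arc and Tnfrsf25 with negative values. Between middle and young, Plpbp came first, with 116 CPM in young 2 and 62.0 and 47.5 CPM in middle sections, but 97.0 and 74.5 CPM in old sections.

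**Figure D4:**
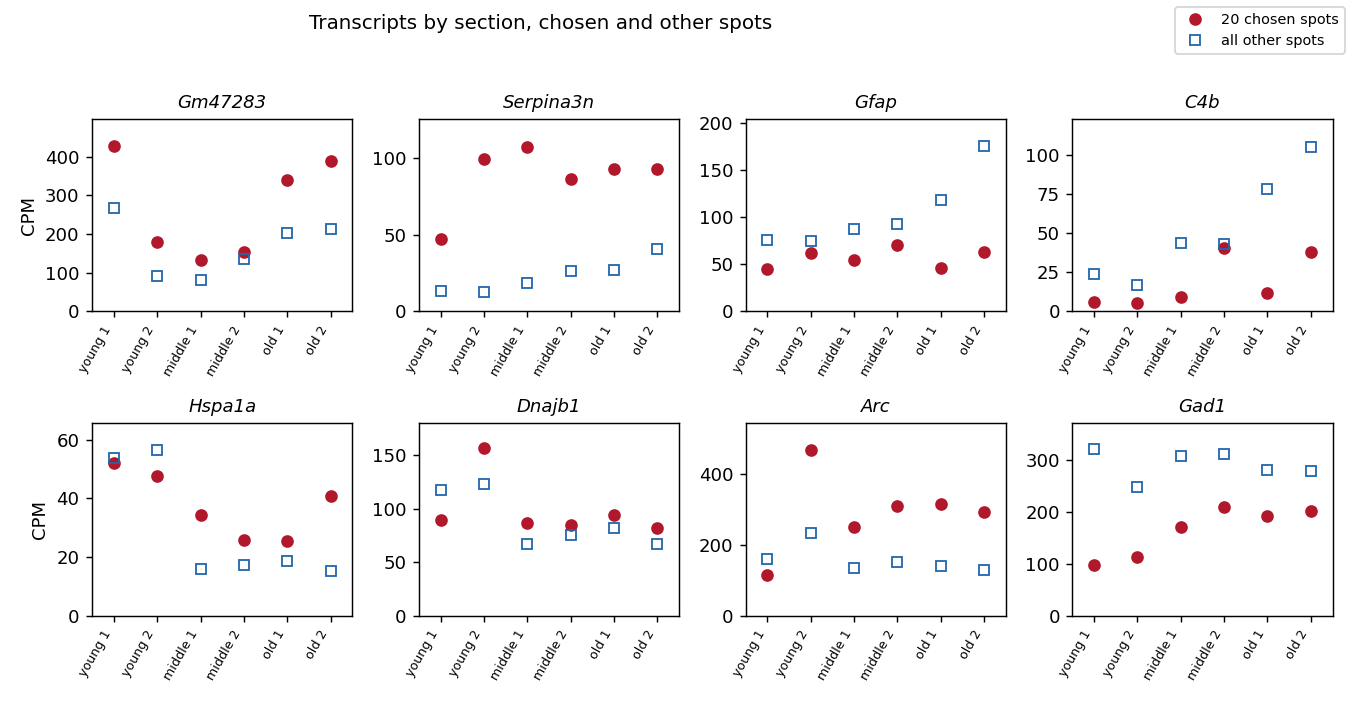
CPM by section (vertical axes, from 0) of 8 genes in the 20 chosen spots (red circles) and in all other spots (blue squares). Gm47283 is highest in young 1 and both old sections in either set, Serpina3n runs from 12.7 to 40.7 CPM in other spots and from 86.4 to 107 CPM in the 5 CA1 sums, and the points of young 1 are from CA3-like spots.

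CA1 identity genes differed little in value between the ages, an outcome that the choice of spots favours. In every section the rule took the spots highest in CA1 transcripts. Genes that vary with these therefore tend to similar levels in all sections, whatever the age. The 10 CA1 genes outside the rule had a median of -0.03 (log2, old over young), and 0 had an unadjusted p under 0.05. Wfs1 had 418 CPM in young 2, 468 and 362 CPM in middle and 455 and 398 CPM in old sections (log2 fold change 0.07, SE 0.16). Of 11 AMPA receptor genes tested, 7 were negative (49.3% of all genes were), with a median of -0.08. Gria1 had 871 CPM in young 2, 826 and 683 CPM in middle and 814 and 746 CPM in old sections, so that all 4 older sections lay below young 2 (log2 fold change -0.12, SE 0.16). Grin1 (0.03, SE 0.16), Grin2a (-0.01, SE 0.16) and Grin2b (-0.11, SE 0.17) had similar small log2 fold changes. None of these passed the test, which does not show that the levels were equal: for genes above 500 CPM the median SE was 0.16, and it was 0.30 for genes of 20 to 100 CPM.

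Among 23 scaffold and kinase genes, 16 were negative (49.3% of all genes were), with a median of -0.10. In all 4 older sections 12 were lower than in young 2, where 23.4% of all 9865 genes were. Among them were Dlg4, Shank1, Shank2, Shank3, Homer1, Camk2a, Camk2b, Camk4, Prkcb and Adcy1. Shank3, a scaffold of the postsynaptic density, had 25.6 CPM in young 2, 14.8 and 18.7 CPM in middle and 12.7 and 7.02 CPM in old sections (log2 fold change -1.28, SE 0.46, adjusted p = 0.995, edgeR). Other spots had 36.4 CPM of Shank3 in young 2 and 5.74 CPM in young 1, so the 2 young sections lay on either side of all older ones (13.6 to 18.4 CPM). Camk2a had 807 CPM in young 2, 430 and 703 CPM in middle and 783 and 676 CPM in old sections. Presynaptic vesicle genes had a median of 0.03, and 4 of 16 were below young 2 throughout, a share near that of all genes (23.4%). Young CA1 is 1 section, so age and section cannot be told apart in such counts.

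Calcium genes, a main interest in the ageing of CA1, had a median log2 fold change of 0.03 over 24 tested. Fkbp1b, which encodes the FK506-binding protein that steadies ryanodine receptors, had 81.3 CPM in young 2, 98.4 and 72.0 CPM in middle and 113 and 114 CPM in old sections. Both old sections lay above the other 3, with a log2 fold change of 0.52 (SE 0.21, adjusted p = 0.995, edgeR). Ryr2 was at 0.02 (SE 0.18) and Cacna1d, an L-type calcium channel, at -0.12 (SE 0.36). Of 16 other potassium, sodium and cation channel genes, 13 were negative (49.3% of all genes were), with a median of -0.13, and 9 lay below young 2 in all 4 older sections (23.4% of all genes did).

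Immediate early genes had a median of -0.20 over 19 tested, with 15 negative (49.3% of all genes were). Of these genes, 4 had an unadjusted p under 0.05 with a negative value, as did 2.11% of all genes, and 10 lay below young 2 in all 4 older sections. Over all genes, 23.4% lay below young 2 in this way. Arc, whose protein acts at synapses after activity, had 468 CPM in young 2, 251 and 308 CPM in middle and 314 and 294 CPM in old sections. Its log2 fold change was -0.58 (SE 0.16, adjusted p = 0.749, edgeR) for old against young and -0.69 (SE 0.16, adjusted p = 0.247) for middle against young. Arc passed the test with slide as a block (adjusted p = 0.0077 for old and 1.92e-04 for middle against young) and with 40 spots per section (0.026 and 0.0121), and without middle 2 for middle against young (0.0317). In other spots Arc had 161 and 233 CPM in young and 129 to 153 CPM in older sections, and the difference of the age change was 0.21 (SE 0.14, adjusted p = 0.997). Egr1 had 868 CPM in young 2 and 672 to 731 CPM in the 4 older sections. Dusp1, a phosphatase of the same list, went the other way, with 25.6 CPM in young 2 and 30.9 to 47.2 CPM in the older sections.

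Heat shock and chaperone genes showed the same side, where 49.3% of all genes had negative values. Of 13 tested, 10 were negative with a median of -0.24, 4 had an unadjusted p under 0.05, and 9 lay below young 2 in all 4 older sections, against 23.4% of all genes. Dnajb1, the HSP40 co-chaperone induced by heat shock factor, had 156 CPM in young 2, 86.6 and 85.0 CPM in middle and 93.9 and 81.5 CPM in old sections. Its log2 fold change was -0.78 (SE 0.19, adjusted p = 0.209, edgeR) between old and young and -0.81 (SE 0.19, adjusted p = 0.247) between middle and young. The inducible HSP70 genes had lower levels: Hspa1a had 47.7 CPM in young 2, 34.4 and 25.9 CPM in middle and 25.3 and 40.7 CPM in old sections. Hspa1b had 52.1 CPM in young 2, 40.3 and 24.5 CPM in middle and 33.8 and 26.7 CPM in old sections.

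Hspa1a and Hspa1b are near-identical copies, so the authors' counting may have split their reads, and their separate values are uncertain. The copies also share their promoter. The 150 bases before each RefSeq start (GRCm38.p6, minus strand, chr17:34972157-34972306 for Hspa1a and chr17:34959239-34959388 for Hspa1b) matched at 149 positions. They are shown because these are the family's classical inducible members, with the heat shock element core GAANNTTC in capitals, a palindrome that reads the same on both strands.
Hspa1a: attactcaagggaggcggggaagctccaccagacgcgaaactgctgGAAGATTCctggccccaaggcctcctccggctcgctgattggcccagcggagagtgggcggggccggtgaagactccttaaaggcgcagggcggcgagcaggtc
Hspa1b: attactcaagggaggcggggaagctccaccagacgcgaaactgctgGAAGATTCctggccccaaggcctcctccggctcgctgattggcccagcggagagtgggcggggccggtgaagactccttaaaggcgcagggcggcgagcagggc
The core starts 104 bases before the start in both. It occurred in the 250 bases before the start of 6 of the 11 listed heat shock genes that had a promoter window, and in that of 7.73% of all 27025 genes. Hspd1 and Hspe1, which are transcribed in opposite directions, share 1 of these matches. Among the genes with a window that lay below young 2 in all 4 older sections, Hspa1a, Hspa1b and Dnaja1 had a match. Dnajb1, Hsph1 and Chordc1 of the same group had none. A match is a description of letters and shows no binding.

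Outside CA1 the same HSP70 genes differed more by value. In other spots Hspa1a had 53.7 and 56.7 CPM in the young sections and 15.3 to 18.6 CPM in the 4 older ones. The difference of the age change, CA1 against other spots and old against young, was tested as an interaction with the section as a block. For Hspa1a it was 1.20 (log2, SE 0.34, adjusted p = 0.997, edgeR), and for Hspa1b 1.03 (SE 0.31, adjusted p = 0.997). Without old 1 the Hspa1a value was 1.73 with an adjusted p of 0.044, and without old 2 it was 0.72 with an adjusted p of 0.9997. Sgk1, a kinase induced by glucocorticoids, had 66.3 CPM in CA1 of young 2 and 43.6 to 60.5 CPM in older CA1, but 138 and 176 CPM in other young spots and 68.7 and 71.3 CPM in other old spots (interaction 0.97, SE 0.25, adjusted p = 0.908).

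This interaction test called 0 of 9865 genes over 5 sections (0%), with 362 at an unadjusted p under 0.05 (3.67%), and 0 by DESeq2 or limma. Over 6 sections edgeR called 0 of 9422 (0%), with 308 at an unadjusted p under 0.05 (3.27%). The smallest p among the genes followed here belonged to Serpina3n, a secreted protease inhibitor and a marker of reactive astrocytes, chosen after its values were seen. In CA1 it had 99.0 CPM in young 2, 107 and 86.4 CPM in middle and 92.8 and 92.7 CPM in old sections. In other spots it had 13.4 and 12.7 CPM in young, 18.4 and 26.3 CPM in middle and 27.1 and 40.7 CPM in old sections. CA1 was thus the higher set in every section, and young 2 lay inside the range of the older CA1 sums.

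The interaction for Serpina3n was -1.42 (log2, SE 0.26, adjusted p = 0.169, edgeR), and the change within CA1 was -0.05 (SE 0.20). It was called under 6 of 15 alternatives, with adjusted p from 9.17e-06 to 0.9999. Gfap, the intermediate filament of astrocytes, had 61.9 CPM in CA1 of young 2, 54.1 and 70.6 CPM in middle and 46.4 and 63.2 CPM in old CA1. In other spots Gfap had 75.8 and 74.8 CPM in young and 118 and 176 CPM in old sections (interaction -1.10, SE 0.25, adjusted p = 0.908, edgeR, and 0.0497 with 40 spots per section). Of 17 genes of glial reactivity and complement tested, 15 had a negative interaction, with a median of -0.30 against 0.02 for all genes, of which 47.7% were negative. Within CA1 the list's median change was 0.05.

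C4b, the complement component, followed the slide in CA1. It had 5.30 CPM in young 2, 8.85 CPM in middle 1 and 11.6 CPM in old 1, all on slide 1, and 40.3 CPM in middle 2 and 37.9 CPM in old 2, on slide 2. Between old and young its log2 fold change was 2.14 (SE 1.62, adjusted p = 0.995, edgeR). It changed with the section left out: without old 1 it was 2.87 (adjusted p = 0.00702), and without old 2 it was 1.13 (adjusted p = 0.998). With slide as a block it was 0.95 (adjusted p = 0.94). On slide 1 alone old 1 held 11 UMIs and young 2 held 6, from 20 spots each. Trem2, a microglial receptor, had 8.84 CPM in young 2, 9.84 and 10.1 CPM in middle and 12.7 and 21.1 CPM in old sections (log2 fold change 0.92, SE 0.56). Microglia markers in CA1 summed to 130 CPM in young 2 and 91.5 to 199 CPM in the older sections, with middle 2 highest. Mitochondrially encoded genes were positive in 13 of 13 tested (50.7% of all genes were), with a median of 0.25, and their summed share was highest on slide 2. Of the 13, 4 lay above young 2 in all 4 older sections, as 14.1% of all genes did. The part of depth, myelin or slide in these values was not tested.

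**Figure D5:**
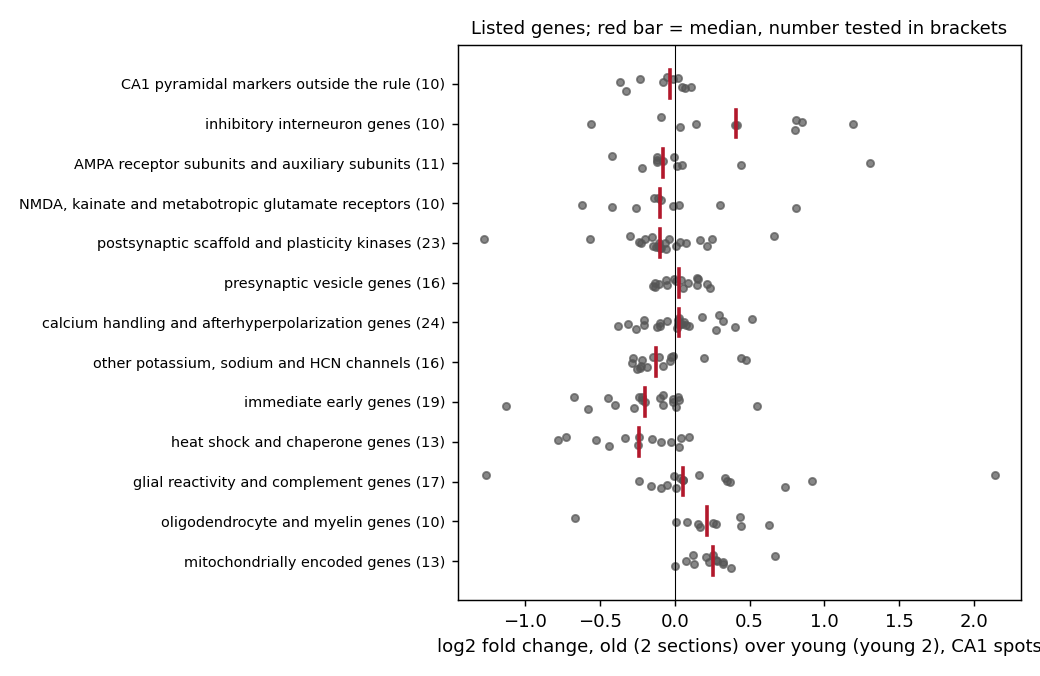
Log2 fold change of old (2 sections) over young (young 2) in CA1 spots for the tested genes of 13 lists (horizontal axis), 1 point per gene, with the median as a red bar. Medians run from -0.24 (heat shock and chaperone genes) to 0.41 (inhibitory interneuron genes), and 0 of the genes shown passed the test.

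Steroid receptor and neurotrophin genes had a median of -0.13 over 11 tested. Nr3c2 had 236 CPM in young 2, 177 and 200 CPM in middle and 181 and 204 CPM in old CA1 (log2 fold change -0.26, SE 0.17). Bdnf, the activity-dependent neurotrophin, had 89.2 CPM in young 2, 90.5 and 67.7 CPM in middle and 85.4 and 98.3 CPM in old CA1, with no separation of the ages. The genes of smallest p between old and middle, beside Gm47283, were not called. Camkk2, a kinase upstream of AMPK, had 67.9 and 53.3 CPM in middle and 108 and 95.5 CPM in old CA1, while the spots of young 1 had 179 CPM. Mlec, an endoplasmic reticulum lectin, had 76.7 and 70.6 CPM in middle and 50.6 and 32.3 CPM in old CA1.

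Section summaries could be compared only coarsely. An exact permutation test over the 30 assignments of 5 sections to the 3 groups was run on 7 values, namely median UMIs per spot, the mitochondrially encoded share and the summed myelin, astrocyte, microglia, interneuron and other CA1 marker levels. The smallest exact p was 0.467, 0.933 after Benjamini-Hochberg adjustment over the 7, and the smallest p this design allows is 0.0667, so no value could pass 0.05. With 6 sections and 90 assignments the smallest was 0.4.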

How the data were processed

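For every spot the deposited files list UMI counts by gene without normalization, and their headers name Space Ranger 1.3.1 as the authors' software. The submitters' processing notes name Space Ranger 3.1 and mm10. Tissue images and region outlines were not used here. Gene positions came from GENCODE M21, which held 32235 of 32285 identifiers. The CA1 spots, genes and lists were chosen with earlier results of these data known. UMIs were summed over 20 spots per section, and over all other spots, and fitted with edgeR 4.0.16 (TMM, filterByExpr, robust quasi-likelihood, age as the only term, two-sided). Levels are plain CPM, and ratios use log2(CPM + 1). DESeq2 1.42.0 and limma 3.58.1 were alternatives. The design named all 6 sections as the main fit. Leading with 5 was chosen after the data had been seen. Named genes were, per contrast and direction, the 5 of smallest p with a mean of at least 20 CPM over the sums fitted, the ends of each list and a fixed set; others in the text were chosen after their values were seen. The fit was tested on simulated data. Some listed genes are not reported here by name.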

Additional observations from a re-analysis of the deposited data

How the results depend on the processing

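Over 6 sections, 0 genes were called in every comparison. Without a filter on low counts the counts were 34 (old against young), 6 (middle against young), 1 (old against middle) and 5 (interaction of CA1 and other spots, old against young). With only the groups compared, old against middle gave 1, and with spots scored by Fibcd1 and Spink8 only the interaction gave 1. Leaving out each section in turn gave 0 to 1245 for old against young, 0 to 1172 for middle against young, 0 to 1 for old against middle and 0 to 1222 for the interaction; each highest count but that for old against middle came without young 2, when CA3-like spots of young 1 stood for young.

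Over 5 sections the counts were 1, 0, 1 and 0. For old against young they were 0 with DESeq2, 3 without a filter, 4 with slide as a block and 2 with 40 spots. For middle against young they were 1 with slide as a block and 1 with 40 spots. For the interaction they were 2 without a filter and 1 each with 40 spots, thinned sums or only the groups compared. Leaving out 1 section gave 1 to 4, 0 to 2, 1 to 3 and 0 to 4, with the highest counts without old 1, middle 2, old 2 and old 1, respectively. Of 4374 values of single genes under an alternative, 39 became called, 1 was lost (Gm47283 with DESeq2), 259 uncalled ones changed sign and 0 called ones reversed.

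Nothing in the labels ties sections of the same replicate number. The correlation of their deviations was 0.0986 for middle and old; those with young (-0.165 and -0.118) set CA3-like spots against CA1 and cannot show a pairing. With the replicate block the counts were 0 in each comparison over 6 sections, and 28 (old against young), 68 (middle against young) and 1 (old against middle) over 5. Of the genes named above, the block over 5 sections called, between old and young, Gad1 (adjusted p = 1.45e-04), Ubxn2b (3.69e-04), C4b (3.69e-04), Dnajb1 (0.0219), Sema3e (0.0302) and Ighm (0.0397). Between middle and young it called Gad1 (3.52e-04), C4b (4.51e-04), Plpbp (4.63e-04), Arc (0.00453), Dnajb1 (0.00636) and Ubxn2b (0.0414). In that fit young 2 shares a block with the sections of slide 2, although it lay on slide 1.

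With 20 spots per section the median SE was 0.30 for genes of 20 to 100 CPM, and Ubxn2b at -1.27 was not called. A single young CA1 section lies behind every value against young.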
